A study of Mus musculus with 4 samples.

Results

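The genes described here encode the 8 chains of 4 cytokine receptors: Ifngr1 and Ifngr2 of the interferon-gamma receptor, Ifnar1 and Ifnar2 of the type I interferon receptor, Il10ra and Il10rb of the interleukin-10 (IL-10) receptor, and Il18r1 and Il18rap of the interleukin-18 (IL-18) receptor. They were taken by gene symbol, all 8 were found among the 17039 genes of the deposited table, and all 8 passed the filter on low counts, which left 12887 genes. RNA had been sequenced from magnetically sorted T cells out of the spleens of C57BL/6 mice. AAV-IL-27 mice carried, for a month after injection into muscle, a recombinant adeno-associated virus (AAV) that expresses interleukin-27 (IL-27), and AAV-ctrl mice carried a control AAV for the same time. There were 2 mice and 2 libraries per group, labelled replicates 1 and 3. The series title names CD8+ T cells, while the cell type field says only T cells of the spleen, and the age and sex of the mice are not given in the sources used here. The virus was given to the animal, and which cells of the mouse met IL-27 was not analysed here.

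Each of these receptors is a pair of different chains in the cell membrane. In the interferon-gamma, type I interferon and IL-10 receptors, the chains carry the kinases Jak1, Jak2 or Tyk2, which phosphorylate STAT transcription factors once the ligand has brought the chains together. The IL-18 receptor belongs to the interleukin-1 receptor family and signals instead through the adaptor Myd88 and the IRAK kinases, and in CD8+ T cells IL-18 is known for promoting interferon-gamma release together with interleukin-12. Interferons raise antiviral and antigen presentation genes in T cells, and IL-10 signals mainly through Stat3.

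In each receptor, 1 chain changed and the other did not pass the test, which by itself does not show that the chains differed. Il10ra rose about 2.02-fold and Ifnar2 1.31-fold in AAV-IL-27, while Ifngr2 fell to 0.582 and Il18r1 to 0.822 of the AAV-ctrl level. Their partners Il10rb, Ifnar1, Ifngr1 and Il18rap stayed between 0.92 and 1.07 of it, and none of these passed. The pattern depended on the setting for 3 receptors. Il10rb also passed under 3 of 13 alternatives (adjusted p = 0.0218, 0.0224 and 0.0314). Ifnar2 was lost with libraries scaled to T cell markers (log2 fold change 0.27, adjusted p = 0.0596), where Ifnar1 did not pass either. Il18r1 was lost with the replicate block (adjusted p = 0.0628) and in 2 fits that left out a library (log2 fold change -0.21 and -0.18). So 2 of 8 genes rose and 2 fell, by edgeR's quasi-likelihood test, with p-values adjusted (Benjamini-Hochberg) over all 12887 genes and called under 0.05. The background of this comparison was high, since 39.0% of all tested genes were called, 21.3% higher and 17.7% lower, and 4 of 8 is near that share. The split of all calls moved with the scaling, from 2745 higher and 2278 lower to 2362 and 2979 with upper-quartile factors, and to 1519 and 2695 with libraries scaled to T cell markers. The median log2 fold change of the 8 genes was -0.02, against -0.01 over all tested genes. In normalised counts (CPM, scaled to library size), the groups did not overlap for 5 of the 8, as for 71.5% of all tested genes. Of the 5, 2 were higher and 3 lower, against 35.7% and 35.8% of all tested genes. DESeq2, which called 23.8% of the genes it tested, called the same 4 genes, Il10ra, Ifnar2, Ifngr2 and Il18r1.

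**Figure D1:**
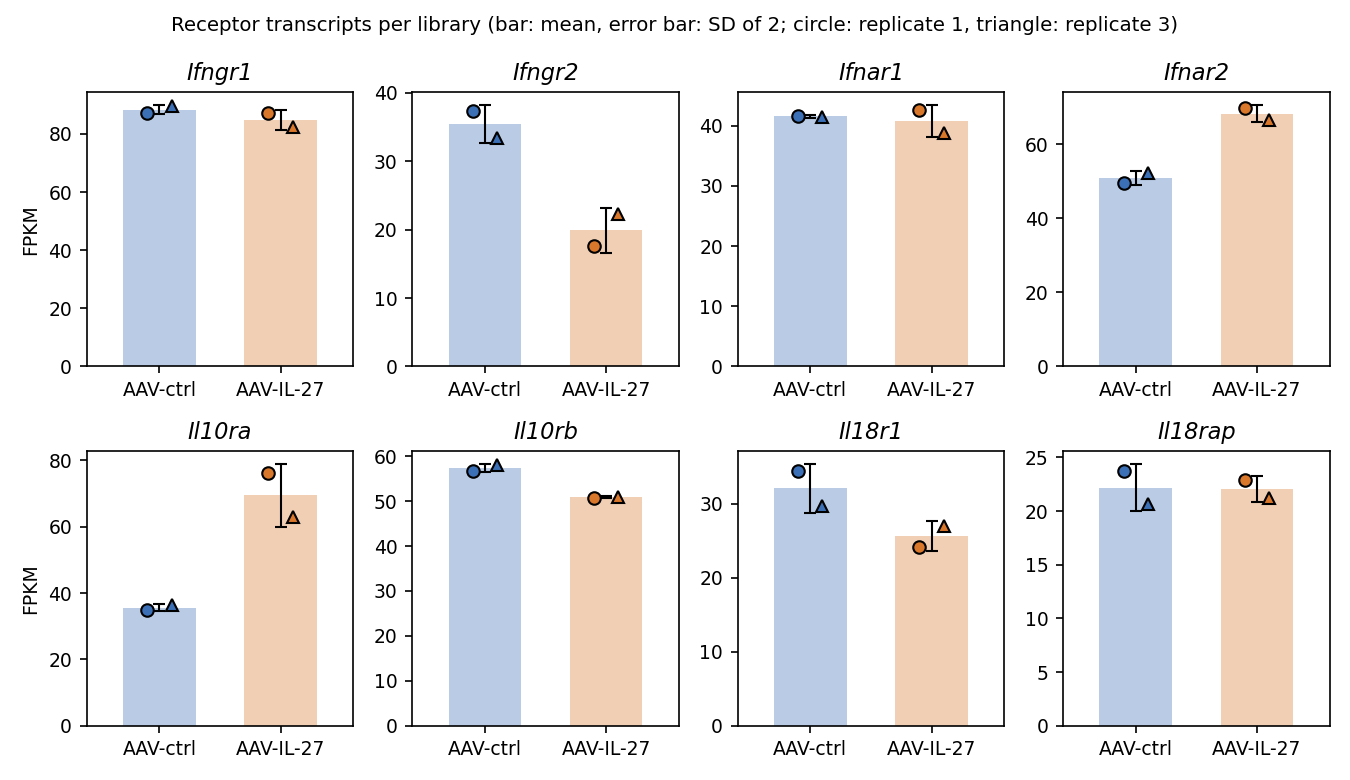
Level of each receptor gene in FPKM (fragments scaled to gene length and library size) on the y axis, with its own scale starting at 0, for AAV-ctrl in blue and AAV-IL-27 in orange. Bars are means and error bars the SD of 2 libraries, circles replicate 1 and triangles replicate 3. Both AAV-IL-27 libraries lie above both AAV-ctrl libraries for Il10ra and Ifnar2, and below them for Ifngr2, Il10rb and Il18r1.

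Of the 8 genes, 4 lie side by side on chromosome 16, on the plus strand, within 191 kb (RefSeq annotation of the mouse build GRCm38.p6, the build named in the submitters' processing notes). Ifnar2 comes first (91372783 to 91405589), Il10rb starts 0.567 kb after its end (91406157 to 91425834), Ifnar1 follows 59.2 kb further on (91485032 to 91510523), and Ifngr2 is last (91547059 to 91564007). Il18r1 (chromosome 1, 40465552 to 40500854) and Il18rap (40515362 to 40551707) are neighbours too, 14.5 kb apart. Ifngr1 (chromosome 10, 19591949 to 19610229) and Il10ra (chromosome 9, 45253837 to 45269149, minus strand) stand alone. Sharing a cluster did not go with a shared change: Ifnar2 rose, Ifngr2 fell, and Il10rb and Ifnar1, which lie between them, did not pass. To show the starts of the 2 genes of the cluster that changed, the 250 bases before the first base of each are printed in lower case, with matches to the STAT-binding motif GAS (TTCNNNGAA, the same on both strands) in capitals.
Ifnar2 (GRCm38.p6, chr16:91372533-91372782, plus strand): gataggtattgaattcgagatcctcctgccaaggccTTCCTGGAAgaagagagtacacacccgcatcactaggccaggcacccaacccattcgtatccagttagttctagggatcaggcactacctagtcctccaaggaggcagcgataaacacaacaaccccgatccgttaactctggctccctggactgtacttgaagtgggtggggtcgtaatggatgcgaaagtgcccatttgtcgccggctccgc
Ifngr2 (GRCm38.p6, chr16:91546809-91547058, plus strand): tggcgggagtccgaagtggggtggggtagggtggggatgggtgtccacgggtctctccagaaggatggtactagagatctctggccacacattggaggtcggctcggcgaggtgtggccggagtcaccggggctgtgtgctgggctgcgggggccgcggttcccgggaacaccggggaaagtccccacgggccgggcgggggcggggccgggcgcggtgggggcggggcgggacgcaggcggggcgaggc
The sequences are RefSeq's, and 6 of the 8 genes had an entry, Il10ra and Il10rb not being among them. A window of 300 bases, 250 before and 50 after the start, was searched on both strands for GAS, for the core of the interferon-stimulated response element (ISRE, GAAANNGAA) and for AP-1 (TGANTCA). Ifnar2 held 1 GAS match, TTCCTGGAA, whose first base lies at -214 from the start, and Ifngr2 held none of the 3 motifs. Ifnar1, which did not pass the test, held TTCACGGAA across the start on which its window (91484965 to 91485264) is built. That start lies inside the gene span given above, after its first base. Of the 3 starts listed for Il18r1, the third held the GAS matches TTCTGGGAA and TTCCCAGAA, and the others held none. The window of the third (40465756 to 40466055) lies inside the gene span given above. Of the 250 bases before that start, 91 are exon bases of Il18r1 itself. Ifngr1 and Il18rap held none of the 3 motifs. Among all 32851 promoter windows of this length, 8.3% held GAS, 8.56% the ISRE core and 7.81% AP-1. CpG numbered 18 in Ifnar2, 26 in Ifnar1 and 31 in Ifngr2 on chromosome 16, and 14 in Ifngr1, against a median of 7 over all windows. Il18rap had 4, and the 3 windows of Il18r1 had 5, 7 and 8. A match is a run of letters, and binding was not measured.

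**Figure D2:**
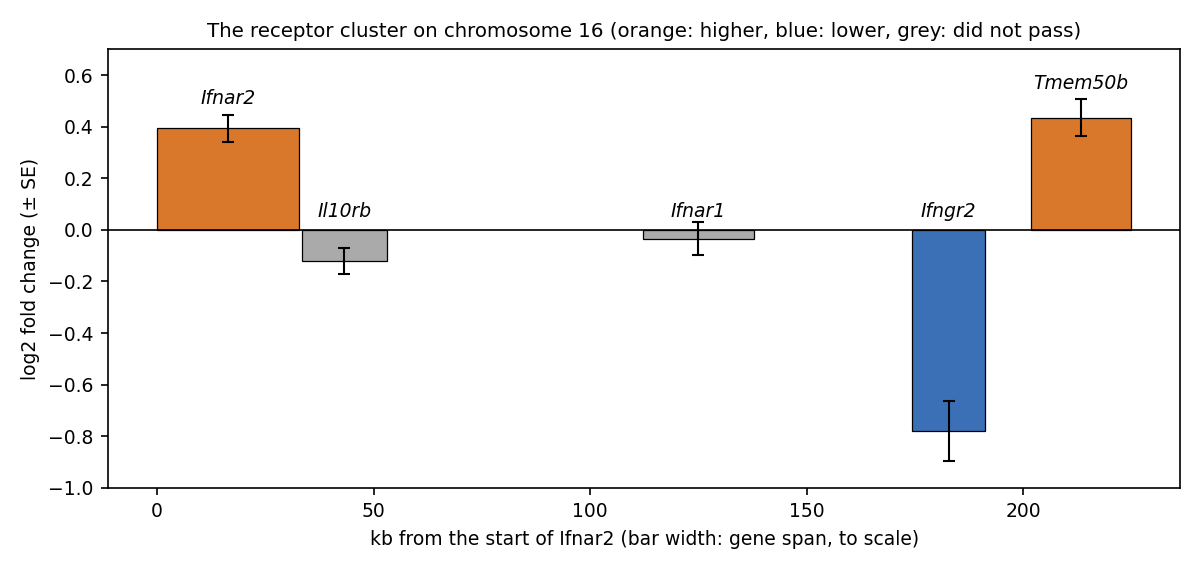
Log2 fold change (AAV-IL-27 against AAV-ctrl, y axis, error bar SE) of the 4 receptor genes of chromosome 16 and of the next tested gene, against distance from the start of Ifnar2 in kb (x axis, bar width to scale). Ifnar2 and Tmem50b are higher, Ifngr2 is lower, and Il10rb and Ifnar1, in grey, did not pass.

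The next tested gene after Ifngr2, Tmem50b, which encodes a membrane protein, lies 10.5 kb on and rose by 0.43 ± 0.072 (SE) on the log2 scale (edgeR adjusted p = 0.00142), from 19.5 and 18.0 FPKM to 23.6 and 25.4. Of the genes around the IL-18 receptor pair, Il1rl2, a chain of the interleukin-36 receptor, fell by 0.65 ± 0.14 (adjusted p = 0.00622), from 3.04 and 2.85 FPKM to 1.62 and 1.85, though not by DESeq2 or without AAV-ctrl replicate 1 (adjusted p = 0.0579 and 0.082). Il1rl1, the interleukin-33 receptor chain, ends 0.134 kb before Il18r1 and had a log2 fold change of 0.64 ± 0.26 at 0.54 to 1.06 FPKM (adjusted p = 0.0767). Slc9a2, a sodium-proton exchanger and the next tested gene after Il18rap, lies 130 kb on and was higher by 1.45 ± 0.43 at 0.13 to 0.42 FPKM (adjusted p = 0.0251).

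All 4 libraries held transcripts of cells other than T cells, and this bears on all 8 genes, which many blood cells express. Total counts were 15742523 to 16182453 per library. Among the markers, Cd3e stood at 172 to 209 FPKM and Cd8a at 321 to 408 in the 4 libraries, while Cd4 stood at 8.21 to 10.1. Neutrophil markers rose in AAV-IL-27 (13 of 14, summed 978 and 1600 FPKM in replicates 1 and 3, against 37.0 and 26.6 in AAV-ctrl), as did basophil and mast cell markers (6 of 6, summed 93.5 and 99.8 against 8.73 and 8.28 FPKM). Of 9 natural killer markers 7 fell, from 4.15 to 16.7 FPKM each in AAV-ctrl to 1.07 to 4.60 in AAV-IL-27. The other two, Tyrobp and Fcer1g, which myeloid cells and basophils also express, did not pass and made up most of the sum over the list (158 and 169 against 245 and 234 FPKM). Of 10 B cell markers 4 fell, and their sum was 889 and 1230 against 1960 and 1710 FPKM. Macrophage and monocyte markers went both ways, with 6 of 11 lower and 1 higher (summed 182 and 229 against 199 and 168 FPKM), and dendritic cell markers had 1 higher and 1 lower of 6 (summed 151 and 114 against 111 and 126 FPKM). CD4 and regulatory T cell markers summed to 21.1 and 25.0 against 28.4 and 26.8 FPKM, with 3 of 5 lower, and T cell markers to 3830 and 3400 against 3360 and 3400 FPKM, with 8 of 15 higher and 2 lower. No marker of these lists was at 0 in all libraries. In bulk samples, fewer cells of a type and less RNA per cell cannot be told apart.

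The IL-10 receptor showed the largest change of the 8 genes. Il10ra (NCBI Gene 16154), the chain that binds IL-10, stood at 76.1 and 62.8 FPKM in AAV-IL-27 replicates 1 and 3 and at 34.9 and 36.3 FPKM in AAV-ctrl replicates 1 and 3, from 4317, 3579, 1940 and 2014 reads. The AAV-IL-27 libraries differed from each other more than the AAV-ctrl libraries did, but the lower of them was still far above both controls. Il10ra rose by 1.01 ± 0.093 (SE) on the log2 scale (edgeR adjusted p = 0.000337), and 5.77% of all tested genes had a higher fold change. It passed under all 13 alternative settings, with a log2 fold change between 0.87 and 1.14. Neutrophil markers, summed, were lower in the AAV-IL-27 library with more Il10ra (978 FPKM in replicate 1, 1600 in replicate 3), and T cell markers were higher in it; the part of either in the rise was not tested.

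Il10rb (NCBI Gene 16155) encodes the second chain, which IL-10 shares with interleukin-22 and the lambda interferons. It stood at 50.8 and 51.0 FPKM in AAV-IL-27 and 56.7 and 57.9 in AAV-ctrl, so the groups did not overlap and replicates lay close together. The log2 fold change was -0.12 ± 0.05, which did not pass (adjusted p = 0.0854), but did with other scalings, at -0.17 with upper-quartile factors (adjusted p = 0.0218) or library size alone (adjusted p = 0.0224). The FPKM ratio of Il10ra to Il10rb therefore went from 0.614 and 0.627 in AAV-ctrl to 1.5 and 1.23 in AAV-IL-27. Il10ra was the scarcer chain in both controls and the more abundant one in both AAV-IL-27 libraries.

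**Figure D3:**
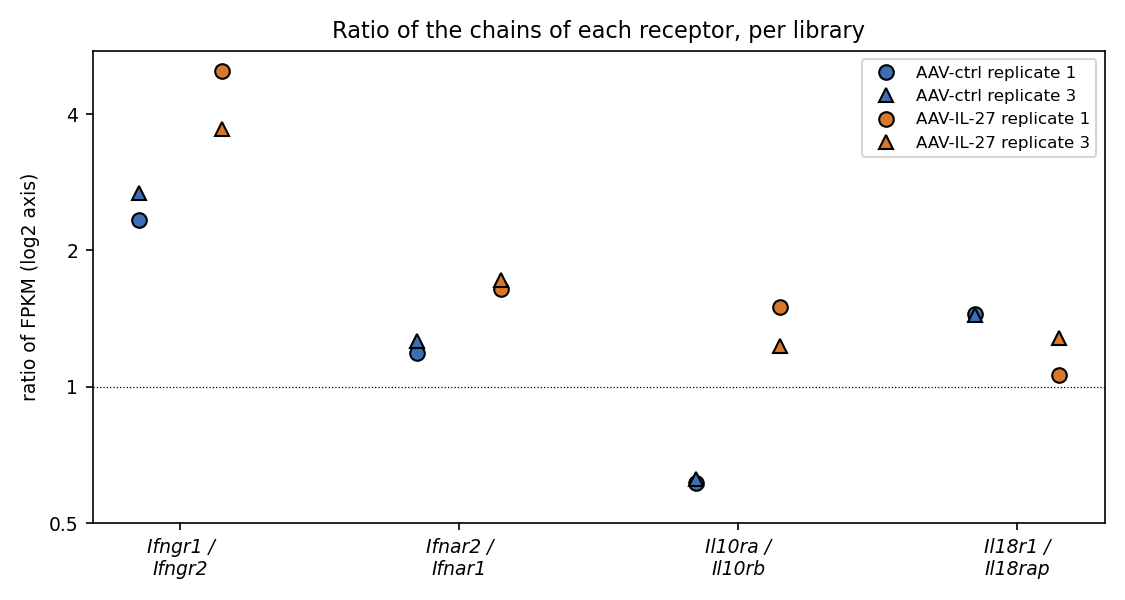
Ratio of the FPKM of the chains of each receptor in each library, on a log2 axis, for AAV-ctrl in blue and AAV-IL-27 in orange (circle replicate 1, triangle replicate 3). Il10ra over Il10rb lies below the dotted line at 1 in both AAV-ctrl libraries and above it in both AAV-IL-27 libraries.

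The chain ratios are a description, since with 2 libraries against 2 the smallest p of an exact permutation test (two-sided) is 0.333. On the log2 scale the ratio moved by 1.13 for Il10ra over Il10rb, by 0.78 for Ifngr1 over Ifngr2, by 0.46 for Ifnar2 over Ifnar1 and by -0.32 for Il18r1 over Il18rap.

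In the interferon-gamma receptor it was the second chain that changed. Ifngr1 (NCBI Gene 15979) binds the ligand and carries Jak1. It was the most abundant of the 8 genes in both groups, at 87.4 and 82.5 FPKM in AAV-IL-27 and 87.3 and 89.5 in AAV-ctrl. The groups overlapped, and the log2 fold change was -0.01 ± 0.051 (edgeR adjusted p = 0.923). Ifngr2 (NCBI Gene 15980), which carries Jak2 and is needed for signalling, is known to limit how T cells answer interferon-gamma. It stood at 17.6 and 22.3 FPKM in AAV-IL-27 replicates 1 and 3 and at 37.4 and 33.4 FPKM in AAV-ctrl, from 586.04, 745.4, 1223.16 and 1088.89 expected counts. Both AAV-IL-27 libraries lay well below both controls, although replicates differed within each group. Ifngr2 fell by 0.78 ± 0.12 (SE) on the log2 scale (edgeR adjusted p = 0.00247), and 4.26% of tested genes had a lower fold change. It passed under all 13 alternatives, at -0.96 to -0.62. From the sixth of the 8 genes by mean FPKM in AAV-ctrl it came last in AAV-IL-27. Ifngr1 was 2.33 and 2.68 times as abundant as Ifngr2 in AAV-ctrl replicates 1 and 3, and 4.97 and 3.70 times in AAV-IL-27.

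The level of Ifngr2 and the summed level of the B cell markers ran in the same order over the 4 libraries. Both were lowest in AAV-IL-27 replicate 1, then higher in AAV-IL-27 replicate 3, AAV-ctrl replicate 3 and AAV-ctrl replicate 1, in that order. This order was not particular to B cells. Summed natural killer markers took it too (158, 169, 234 and 245 FPKM). So did the CD4 and regulatory T cell markers (21.1, 25.0, 26.8 and 28.4 FPKM). As a share of the summed B cell marker FPKM, Ifngr2 stood at 1.98% and 1.81% in AAV-IL-27 and 1.91% and 1.95% in AAV-ctrl, so that the groups overlapped on this scale. As a share of the summed T cell marker FPKM it stood at 0.459% and 0.656% in AAV-IL-27 and 1.11% and 0.982% in AAV-ctrl. Against the natural killer sum, Ifngr2 stood at 11.1% and 13.2% in AAV-IL-27 and 15.3% and 14.3% in AAV-ctrl. The part of B cell, natural killer or CD4 T cell transcripts in the fall of Ifngr2 was not tested. The libraries came in the same order for Il18r1, which ran from 2.72% and 2.21% of the B cell sum in AAV-IL-27 to 1.76% and 1.74% in AAV-ctrl. These are 4 libraries of 2 groups, so the order is a description.

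**Figure D4:**
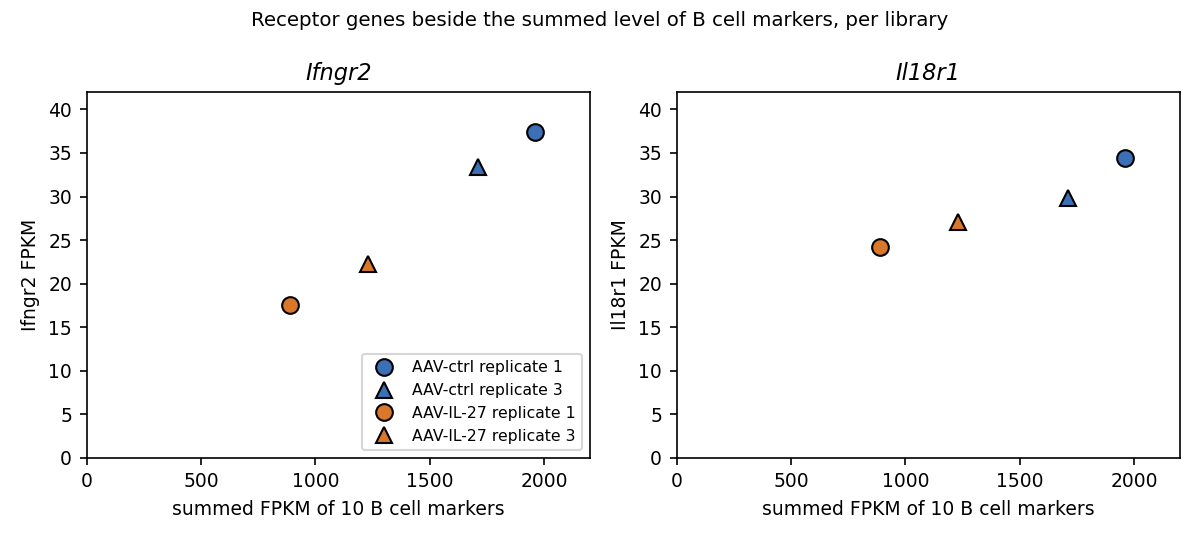
FPKM of Ifngr2 (left) and Il18r1 (right) on the y axis against the summed FPKM of 10 B cell markers on the x axis, 1 point per library, AAV-ctrl in blue and AAV-IL-27 in orange. In both panels the libraries come in the same order along both axes, and the points of Ifngr2 lie at 1.81% to 1.98% of the marker sum.

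In the type I interferon receptor, Ifnar2 was higher. Ifnar2 (NCBI Gene 15976) is the chain with the higher affinity for the ligand, and it docks the STAT proteins. It is also known to give rise to a soluble form by splicing. Its level was 70.0 and 66.7 FPKM in AAV-IL-27 and 49.5 and 52.2 in AAV-ctrl, from 2318, 2208, 1712 and 1771 reads. The replicates of each group lay close together and the groups did not overlap. Ifnar2 rose by 0.39 ± 0.053 (SE) on the log2 scale (edgeR adjusted p = 0.000408), while 16.8% of tested genes had a higher fold change. It passed under 12 of 13 alternatives, and not when libraries were scaled to the T cell markers (0.27, adjusted p = 0.0596), a scaling that moved the median of all genes to -0.13. Ifnar1 (NCBI Gene 15975), the chain that binds Tyk2, stood at 42.7 and 38.9 FPKM in AAV-IL-27 and 41.7 and 41.4 in AAV-ctrl. The groups overlapped (-0.03 ± 0.063, edgeR adjusted p = 0.704). Ifnar2 was 1.19 and 1.26 times as abundant as Ifnar1 in AAV-ctrl, and 1.64 and 1.72 times in AAV-IL-27. This order of the chains rests on the length used for Ifnar1, which the deposited values imply to be 6082 to 6496 bases, above the 3909 bases of its longest transcript in GENCODE M21.

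The IL-18 receptor chains had the lowest mean levels of the 8 genes in AAV-ctrl. Il18r1 (NCBI Gene 16182), the chain that binds IL-18, stood at 24.2 and 27.1 FPKM in AAV-IL-27 and 34.4 and 29.8 in AAV-ctrl. The groups did not overlap, but the gap between AAV-IL-27 replicate 3 and AAV-ctrl replicate 3 was smaller than that between the AAV-ctrl libraries. Il18r1 fell by 0.28 ± 0.08 (SE) on the log2 scale (edgeR adjusted p = 0.0249), and 19.0% of tested genes had a lower fold change. The call was lost without AAV-IL-27 replicate 1 (-0.21, adjusted p = 0.0836), without AAV-ctrl replicate 1 (-0.18, adjusted p = 0.187) and, with all 4 libraries, with the replicate block (-0.28, adjusted p = 0.0628). Il18rap (NCBI Gene 16174), the accessory chain that completes the signalling complex, stood at 22.9 and 21.2 FPKM in AAV-IL-27 and 23.7 and 20.7 in AAV-ctrl. The groups overlapped (0.10 ± 0.078, adjusted p = 0.347). Natural killer cells are known to carry both chains, and 7 of 9 markers of these cells fell. Their defining gene Ncr1 went from 12.1 and 11.6 FPKM in AAV-ctrl to 1.62 and 2.25 in AAV-IL-27. The part of natural killer transcripts in these values was not tested.

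**Figure D5:**
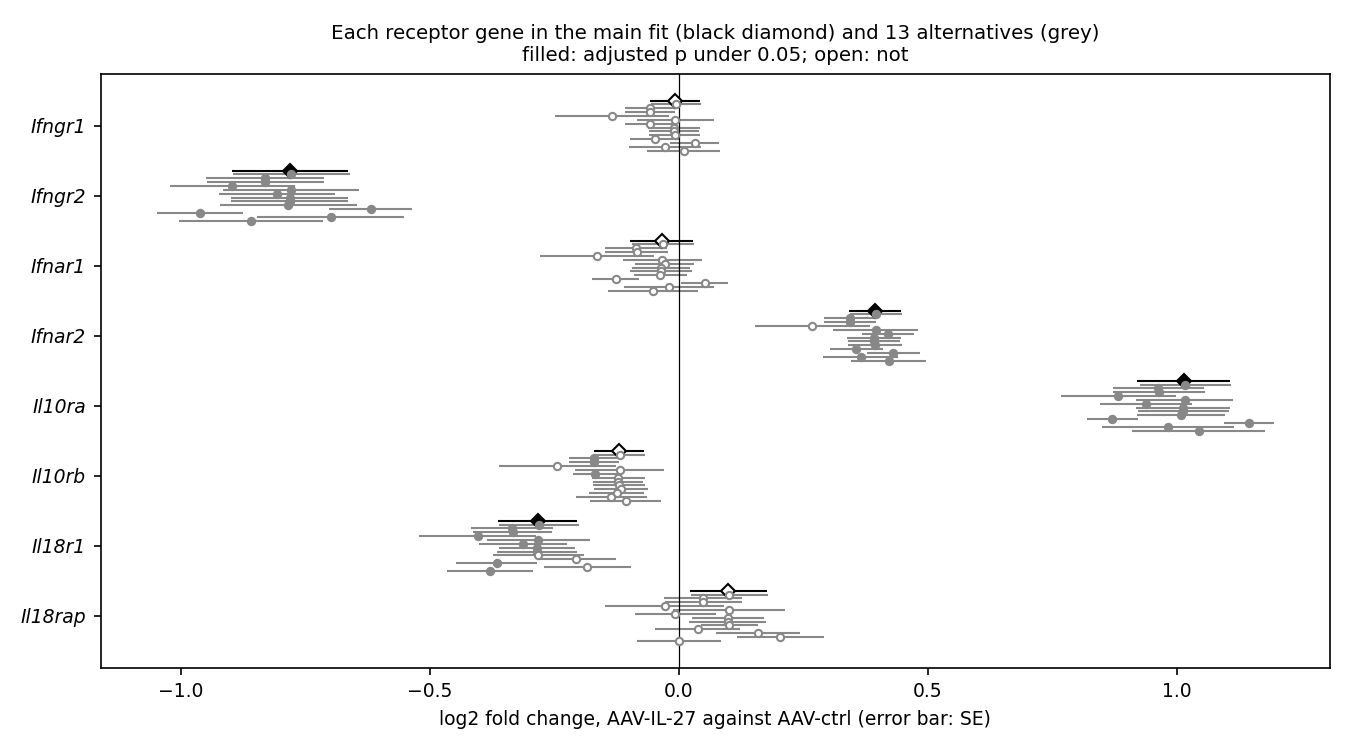
Log2 fold change (x axis, error bar SE) of each receptor gene (y axis) in the edgeR comparison as reported (black diamond) and under 13 other settings (grey circles), filled where the adjusted p was under 0.05. Il10ra and Ifngr2 are filled throughout, Ifnar2 misses under 1 setting and Il18r1 under 3, and Ifngr1, Ifnar1 and Il18rap are open throughout.

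By mean level per length, Ifngr1 came first and Ifnar2 in the third place in both groups. The places of Ifnar1 and of the genes near it rest on the length used for Ifnar1, which is above that of its longest transcript in GENCODE M21. In AAV-ctrl the means ran 88.4 ± 1.55 (SD, n = 2) for Ifngr1, 57.3 ± 0.863 for Il10rb, 50.8 ± 1.88 for Ifnar2, 41.5 ± 0.184 for Ifnar1, 35.6 ± 1.04 for Il10ra, 35.4 ± 2.81 for Ifngr2, 32.1 ± 3.27 for Il18r1 and 22.2 ± 2.16 FPKM for Il18rap. The ranges of Il10ra, Ifngr2 and Il18r1 overlapped from each to the next. In AAV-IL-27 Il10ra (69.4 ± 9.39 FPKM) and Ifnar2 (68.3 ± 2.33) shared the places behind Ifngr1 (84.9 ± 3.47) with overlapping ranges. They were followed by Il10rb (50.9 ± 0.148), Ifnar1 (40.8 ± 2.68) and Il18r1 (25.6 ± 2.04), and Il18rap (22.0 ± 1.18) and Ifngr2 (19.9 ± 3.31) overlapped at the bottom. All 8 genes lay in the upper part of the range, with 70.5% to 94.5% of tested genes at a lower mean FPKM in AAV-ctrl.

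How the reads were assigned differed among the 8 genes. Counts were whole in all 4 libraries for Ifngr1, Ifnar2, Il10ra, Il10rb and Il18rap, in none for Ifngr2 and Ifnar1, and in 1 for Il18r1, so that expected counts of these 3 held fractions of reads. This is not particular to these genes, since 64.9% to 65.1% of all genes had a whole count in each library. The gene length implied by count, FPKM and total count was nearly the same in all libraries for Ifngr1 (2099 bases) and Ifngr2 (2069 bases). It was shorter in AAV-IL-27 for Ifnar2 (2056 and 2046 bases, against 2188 and 2156) and Ifnar1 (6289 and 6082, against 6496 and 6385), and longer for Il18rap (3560 and 3522, against 3407 and 3391). Groups so far apart, by at least 2% without overlap, were found for 3 of the 8 genes and for 9.12% of 6228 genes with at least 10 FPKM in every library, a rule chosen after the values were seen. An estimated length moves with the mix of transcripts of a gene, and single transcripts were not analysed here. For these 3 genes the fold in FPKM and the fold in counts therefore differ slightly. On the log2(FPKM + 1) scale Il18rap stood at -0.01. The GENCODE M21 annotation places Gm21970, a gene on the same strand that spans parts of Ifnar2 and Il10rb, across both, and it has no row in the deposited table.

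Genes that act with these receptors were read from the same fit. Of 37 tested genes of ligands, signalling proteins, inhibitors and related receptors, 15 rose, 8 fell and 14 did not pass (median log2 fold change 0.11), where 39.0% of all tested genes were called, 21.3% higher and 17.7% lower (median -0.01). The list was chosen with earlier results of these data known. Without AAV-ctrl replicate 1, 15 of the 37 passed, 2 of them lower, and without AAV-ctrl replicate 3 there were 4 lower.

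Ligands of 2 of the receptors rose. Ifng, the ligand of the receptor whose chain Ifngr2 fell, went from 6.36 and 6.06 FPKM in AAV-ctrl to 37.4 and 33.5 in AAV-IL-27 (2.56 ± 0.099 on the log2 scale, edgeR adjusted p = 2.24e-07). Il10, the ligand of the receptor whose chain Il10ra rose, went from 0.44 and 0.79 to 14.9 and 12.6 FPKM (4.53 ± 0.23, adjusted p = 1.03e-06). Il18 itself was low, at 5.94 and 3.79 FPKM in AAV-ctrl and 2.35 and 2.54 in AAV-IL-27, and it fell by 0.92 ± 0.29 (adjusted p = 0.031), a call not made by DESeq2 (adjusted p = 0.121) and lost without AAV-IL-27 replicate 1, AAV-IL-27 replicate 3 or AAV-ctrl replicate 1 (adjusted p = 0.095, 0.0664 and 0.332). Il18bp, a secreted protein that binds and blocks IL-18, rose from 4.80 and 4.95 to 12.3 and 12.3 FPKM (1.45 ± 0.13, adjusted p = 2.86e-05). Of the type I interferon genes listed, none was tested, and Ifnz, with 0 to 0.38 FPKM, was the one with a row.

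Of the kinases bound to the chains, Jak1 fell by 0.29 ± 0.052 (edgeR adjusted p = 0.0023), Jak2 rose by 0.31 ± 0.065 (adjusted p = 0.00595), and Tyk2 stood at -0.02 ± 0.058 (adjusted p = 0.85). Jak1 was lost without AAV-ctrl replicate 3 (adjusted p = 0.057) and Jak2 without AAV-ctrl replicate 1 (adjusted p = 0.0821) or scaled to the T cell markers (adjusted p = 0.217). Of the transcription factors, Stat2 rose by 0.60 ± 0.051 and Stat3, the main target of the IL-10 receptor, by 0.67 ± 0.048. Stat4 fell by 0.19 ± 0.056 and Irf9, a partner of Stat2, rose by 0.22 ± 0.063, and both calls (adjusted p = 0.023 and 0.0241) were lost under at least 4 settings, DESeq2 among them (adjusted p = 0.0779 and 0.0599). Without AAV-ctrl replicate 3 their adjusted p was 0.191 and 0.235; the call of Stat4 was also lost without AAV-IL-27 replicate 1 (0.0923) or AAV-ctrl replicate 1 (0.0841), and that of Irf9 without AAV-IL-27 replicate 3 (0.0559).

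Genes of IL-18 signalling went both ways, with 2 of 10 higher, 2 lower and 6 not passing, a share near the 39.0% called among all tested genes. Myd88, the adaptor, rose from 30.9 and 27.6 to 44.4 and 42.8 FPKM (0.63 ± 0.067, edgeR adjusted p = 0.000106). Irak2, a kinase of the complex, fell from 15.9 and 15.6 to 10.3 and 11.3 FPKM (-0.50 ± 0.073, adjusted p = 0.000764). Irak4 rose by 0.35 ± 0.083 and Map3k7, the kinase TAK1, fell by 0.18 ± 0.053. Both calls were lost without AAV-ctrl replicate 1 or 3 (adjusted p = 0.0974 and 0.0506 for Irak4, 0.0636 and 0.241 for Map3k7). Irak4 was also lost when scaled to the T cell markers (adjusted p = 0.156) and by limma on log2(FPKM + 1) (adjusted p = 0.0552), and Map3k7 by DESeq2 (adjusted p = 0.147) and without AAV-IL-27 replicate 3 (adjusted p = 0.0658). Irak1, Irak3, Traf6, Tab1, Tab2 and Tab3 did not pass. Irak3 stood at -0.61 ± 0.2 (adjusted p = 0.0577) and did pass by DESeq2 (adjusted p = 0.0299), among other settings.

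Of 8 genes listed as feedback inhibitors of cytokine signalling, not each of them of these receptors, 4 rose and 2 fell, against 21.3% higher and 17.7% lower over all tested genes. Socs1, which blocks the kinases of the interferon-gamma receptor, went from 10.1 and 7.95 to 34.8 and 31.4 FPKM (1.94 ± 0.11, edgeR adjusted p = 2.83e-06). Socs3, a feedback inhibitor of STAT3 signalling, rose by 1.77 ± 0.066 (adjusted p = 2.24e-07). Usp18, which is known to bind Ifnar2 and dampen type I interferon signalling, went from 8.07 and 7.13 to 22.1 and 21.7 FPKM (1.58 ± 0.088, adjusted p = 1.85e-06). Ptpn11, the phosphatase SHP-2, rose by 0.33 ± 0.05, but missed the threshold when T cell markers set the scale (adjusted p = 0.152). Ptpn6, the phosphatase SHP-1, fell by 0.34 ± 0.069 and Pias1, a STAT inhibitor, by 0.21 ± 0.051. Without AAV-ctrl replicate 1 neither passed (adjusted p = 0.0705 and 0.0618). The call of Pias1 was lost by DESeq2 too (adjusted p = 0.0684), and when AAV-ctrl replicate 3 was left out (adjusted p = 0.113).

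Of the other receptors of the same families, Sigirr and Il1rap were the ones above 3.04 FPKM in any library. Of the remaining class II cytokine receptors, Il20rb and Ifnlr1 were tested, neither passed, and none of the 6 exceeded 1.95 FPKM in any library. Of the interleukin-1 receptor family, Il1r2, a decoy receptor known from neutrophils, rose from 0.24 and 0.11 to 0.72 and 1.04 FPKM (2.59 ± 0.54, edgeR adjusted p = 0.00459), and not without AAV-ctrl replicate 3 (adjusted p = 0.0714). Neutrophil markers rose in the same libraries, and their part in this was not tested. Sigirr, an inhibitory member of the family, stood at 30.6 to 33.5 FPKM and did not pass (-0.06 ± 0.06, adjusted p = 0.437). Il1rap, the accessory chain of the interleukin-1 receptor, stood at 5.03 to 6.33 FPKM and did not pass either (adjusted p = 0.338).

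The genes whose profile over the 4 libraries lay nearest to each receptor gene were found by Euclidean distance of log2 CPM centred on its mean, among 10598 others whose mean log2 CPM was 2 or more. For Il10ra they were Cd7 (distance 0.0434) and Ptger4 (0.0643), for Ifngr2 Mef2c (0.0479) and Tspan32 (0.0493), for Ifnar2 Atp5f1 (0.0127) and Psmd8 (0.0219), and for Il18r1 Rnf25 (0.0145) and Amz2 (0.0159). Among the genes that did not pass, the nearest was Ctnnbl1 for Ifngr1 (0.00939), Gle1 for Il10rb (0.00674) and Fam174a for Il18rap (0.0105). With 4 libraries many genes share a profile, so this is a description.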

How the data were processed

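For each gene, the authors deposited expected counts in every library and a second set of columns taken here as FPKM from the values, since the header does not name the unit (deposited values moved with the total counts). Tools listed in the submitters' processing notes, with no role stated, are RSEM 1.2.12, HISAT2 2.0.4, Bowtie2 2.2.5 and DESeq2 1.4.5, and strandedness was not given in the sources used here. Expected counts were rounded, filtered with filterByExpr, scaled with TMM and compared with edgeR 4.0.16 (robust quasi-likelihood fit, 2 against 2 libraries, no block, two-sided) in R 4.3.3. The standard error is the log2 fold change divided by the square root of F. Replicates were distinct libraries, with a chi-square of 6.79 per degree of freedom between the AAV-IL-27 counts and of 2.55 between the AAV-ctrl counts. FPKM are given per library or as mean ± SD. Alternatives used limma 3.58.1 on log2(FPKM + 1), computed here from the deposited FPKM, and DESeq2 1.42.0. The members, the lists and the rule for named genes (all 8 members, tested genes of the fixed pathway lists, neighbours and nearest profiles) were chosen with earlier results of these data known. Columns of group means were not used. Values of a few listed genes are not reported here.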

Additional observations from a re-analysis of the deposited data

How the results depend on the processing

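Il10ra and Ifngr2 passed under all 13 alternatives. Ifnar2 missed the threshold when T cell markers set the scale (0.27, adjusted p = 0.0596), which left 1 of the 8 genes higher. Il10rb passed with upper-quartile factors (-0.17), library size alone (-0.17) and limma on log2(FPKM + 1) (-0.17, adjusted p = 0.0314). Il18rap turned negative when scaled to the T cell markers (-0.028) and on log2(FPKM + 1) (-0.0069). With the replicate block, Il18r1 stood at -0.28 (adjusted p = 0.0628), leaving 1 gene lower, and no other call of the 8 changed. Same-numbered libraries did not deviate together (r = -0.001 across 12887 genes). With 2 libraries per group, this cannot show whether the numbers pair the mice. Leaving out 1 library gave log2 fold changes of -0.38 to -0.18 for Il18r1, -0.048 to 0.032 for Ifngr1 and -0.13 to 0.053 for Ifnar1, with 1 or 2 of the 8 genes lower. The sign turned without AAV-IL-27 replicate 3 for Ifngr1 and Ifnar1, and without AAV-ctrl replicate 3 for Ifngr1 (0.01). Among the genes that act with the receptors, it turned within the ranges -0.087 to 0.051 for Tyk2, -0.037 to 0.020 for Traf6, with 0.011 without AAV-ctrl replicate 1, -0.0085 to 0.12 for Tab3, -0.35 to 0.23 for Ifnlr1, with 0.038 without AAV-ctrl replicate 1, and -0.021 to 0.35 for Il1rap. Scaled to the T cell markers, it turned for Irak1 (-0.034), Tab2 (-0.089), Tab3 (-0.070) and Ptpn2 (-0.013). Tab2 turned with upper-quartile factors (-0.016), library size alone (-0.016) and log2(FPKM + 1) (-0.015). None of these genes passed in the settings that turned its sign.

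Over all genes, DESeq2 called 3185 (23.8% of those it tested), 1212 of them lower, against 5023 and 2278. Leaving out 1 library gave 2635 to 4886 calls, 1646 to 2632 higher and 989 to 2254 lower, and an arm left with 1 library is assumed to vary like the other. Scaled to the T cell markers, 1519 genes were higher and 2695 lower, with upper-quartile factors 2362 and 2979, and with library size alone 2363 and 2975, against 2745 and 2278. Of the 37 genes that act with the receptors, 4 were lower by DESeq2, and 15 to 23 passed with 1 library left out, 2 to 7 of them lower. Over all genes, fewer were called without either AAV-ctrl library than without either AAV-IL-27 library, though each such fit had 1 library fewer. The cause of these differences was not tested. Both the number of libraries, 2 per group, and depth limit the precision, and their parts were not separated.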
